A study of Sus scrofa with 2 samples.

Results

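VCAN/AREG cells were granulosa cells of pig antral follicles that carried many transcripts of both VCAN and AREG. They were chosen by their measured unique molecular identifiers (UMIs, 1 per captured RNA molecule) of VCAN, AREG, THBS1 and division genes. A cell barcode was a member if it had 2000 to 5000 genes, less than 7% of its UMIs from 13 mitochondrial genes, at least 30 UMIs of VCAN, at least 10 of AREG, fewer than 10 of THBS1 and fewer than 5 of TOP2A, UBE2C and CENPF together. In follicle AF75, 415 of 9362 barcodes inside the limits on genes and mitochondrial share were members, or 4.43% (exact 95% binomial interval 4.02 to 4.87). In follicle AF76, 148 of 7843 were members, or 1.89% (1.60 to 2.21). The 563 members came from 17205 barcodes inside the limits and 29837 deposited ones.

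Somatic cells of 2 healthy antral follicles, each more than 7 mm across, were taken from a pubertal Landrace Yorkshire pig of 210 days. Both came from ovaries stimulated with pregnant mare serum gonadotropin, no untreated follicle was measured, and each follicle was 1 library made with the 10x Genomics 3' v3.1 kit, so follicle and library cannot be told apart. Both follicles carry the labels of 1 animal, so no p-value covers a spread between animals. The cells came from flushed follicular fluid and from cumulus-oocyte complexes pipetted in hyaluronidase, so cumulus and mural granulosa cells were mixed before capture.

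Granulosa cells line the follicle as mural cells or surround the oocyte as cumulus cells. Around ovulation, the luteinizing hormone surge makes mural cells release EGF-like ligands such as amphiregulin, the product of AREG, which act on cumulus cells through the EGF receptor. Cumulus cells then spread apart in a matrix of hyaluronan, to which versican, the product of VCAN, binds. Both cell kinds make inhibins, and granulosa cells turn cholesterol into progesterone and androgens into estradiol. The study used VCAN to mark cumulus granulosa cells, and AREG together with CYB5A to mark mural ones.

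The promoters of 2 genes that the results below turn on are shown, because sterol synthesis genes were the list with the most higher genes in these cells and AREG is a gene of the rule. Each is the 250 bases before the gene start in the RefSeq annotation of Sscrofa11.1, 5' to 3' on the strand of the gene, with a motif match in capitals. The genes and motifs were chosen after the values were seen. HMGCS1 lies on the minus strand and its window is chr16:27957262-27957511. AREG lies on the plus strand with the window chr8:70417685-70417934. In HMGCS1 the capitals are a sterol regulatory element, searched as TCACNCCAC. In AREG they are a cAMP response element, searched as TGACGTCA.
HMGCS1: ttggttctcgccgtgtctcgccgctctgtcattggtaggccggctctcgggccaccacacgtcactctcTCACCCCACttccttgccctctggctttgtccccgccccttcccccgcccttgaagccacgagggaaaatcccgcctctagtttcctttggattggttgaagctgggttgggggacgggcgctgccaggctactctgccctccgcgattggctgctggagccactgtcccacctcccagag
AREG: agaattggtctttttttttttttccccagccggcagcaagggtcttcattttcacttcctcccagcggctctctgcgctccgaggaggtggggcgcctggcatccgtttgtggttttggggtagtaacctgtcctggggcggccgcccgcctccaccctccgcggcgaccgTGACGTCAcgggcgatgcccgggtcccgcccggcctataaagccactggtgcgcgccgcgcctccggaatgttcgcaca
The match began at position -181 from the gene start in HMGCS1 and at -79 in AREG. On both strands, the sterol regulatory element was found in 0.803% of 19547 RefSeq promoters of this length and in 3 of the 24 promoters matched to the list of cholesterol and fatty acid synthesis genes, that of HMGCS1 among them. The CCAAT box was found in 31.9% of all promoters and in 19 of these 24. The GC box, searched as GGGCGG, was found in 45.9% of all promoters and in 20 of these 24. The cAMP response element was found in 1.70% of all promoters. These matches are descriptions of letters and show no binding.

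Over all deposited barcodes the libraries had like totals, 125409747 UMIs in AF75 and 127414267 in AF76. Inside the limits, barcodes of AF76 held more UMIs than those of AF75, by the medians below. Members held more UMIs than the other barcodes inside the limits. The median was 13301 against 11165 UMIs in AF75 and 16807.5 against 13834 in AF76. A doublet score, the share of artificial doublets near each barcode, also moved with membership. In AF75, 28.7% of members (119 of 415) were among the 6.9% of barcodes with the highest scores, against 5.89% of the others. In AF76 the shares were 9.46% (14 of 148) and 6.85%. With these barcodes left out, the members were 3.40% of barcodes in AF75. The part of doublets and of free RNA in the levels below was not tested. The libraries shared 56 barcode sequences, 2 of which were members in AF75 and 1 in AF76, and leaving them out again gave 809 called genes in the comparison with all other barcodes.

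The rule was set on VCAN and AREG, so their levels are a description. VCAN had a median of 45 UMIs in a member of AF75 (range 30 to 240) and 38 in AF76 (30 to 116). AREG had a median of 28 UMIs in AF75 (10 to 373) and 36 in AF76 (10 to 520). Summed over members, VCAN stood at 3759 UMIs per 1000000 UMIs of the sum (CPM) in AF75, against 1957 in all other barcodes inside the limits. In AF76 it stood at 2522 against 376 CPM. AREG stood at 3116 against 2757 CPM in AF75 and at 3924 against 5354 CPM in AF76. The VCAN level was thus above that of the other barcodes in both follicles, whereas the AREG level was above it in AF75 only.

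The AREG limit was a low bar in these follicles. It was met by 59.3% of all barcodes inside the limits in AF75 and by 78.2% in AF76. In AF75, 24.1% of the 2331 barcodes with at least 30 VCAN UMIs met it, against 71.0% of the barcodes with fewer. In AF76 it was met by 69.3% of the 225 barcodes with at least 30 VCAN UMIs and by 78.4% of those with fewer. No test was made of these shares, since the rule uses both genes. The members are called VCAN/AREG cells by their rule, since "high" for AREG did not hold in AF76.

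Members lay close to the limits. In AF75, 91 members had 30 to 34 VCAN UMIs, and 127 barcodes that met the rest of the rule had 25 to 29. In AF76 these were 48 and 71. For AREG, 67 members of AF75 had 10 to 12 UMIs and 87 other barcodes had 7 to 9, with 10 and 19 in AF76. For THBS1, 27 members of AF75 had 7 to 9 UMIs and 21 other barcodes had 10 to 12, with 0 and 1 in AF76. VCAN UMIs exceeded AREG UMIs in 304 of 415 members in AF75 and in 76 of 148 in AF76. Of the 562 barcodes of AF75 and 156 of AF76 with both genes past their limits, 106 and 5 were left out for THBS1 and 55 and 3 for the division genes, 14 and 0 of them for both.

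The members carried granulosa cell genes, though several at a lower level than the other barcodes. In the comparison with all other barcodes described below, 1 of 13 tested granulosa identity genes was higher (INHBA) and 5 were lower (INHBB, AMHR2, NR5A2, CYP19A1 and CYP11A1), against 3.33% and 3.21% of all genes. DESeq2 called 0 higher and 2 lower of 11. AMHR2 had few UMIs in members, as given below. INHA, the alpha subunit of inhibin, stood at 18522 CPM in AF75 and 22107 in AF76. CYP11A1, the side-chain cleavage enzyme that starts steroid synthesis, stood at 1491 and 1255 CPM, against 1701 and 1690 in the other barcodes. GATA4, a transcription factor of gonadal somatic cells, stood at 73.9 and 55.5 CPM. The 12 leukocyte markers summed to 11.6 CPM in AF75 and 9.85 in AF76, against 13.6 and 17.0 in the other barcodes. Of these markers 7 and 6 had no UMI in members. PTPRC, which defines leukocytes, was one of them. A count of 0 was read as at most 3 UMIs, which is 0.498 CPM in AF75 and 1.18 in AF76. Of 9 oocyte markers, 8 had no UMI in members of each follicle.

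The proposed markers besides VCAN and AREG were LRP4, AMIGO2, SLC6A4 and JAG1. They were chosen with these data known, so their differences are given without a test. SLC6A4, the serotonin transporter, stood at 2082 CPM against 1569 in AF75 and 2385 against 1368 in AF76, 1.33 times (exact 95% interval 1.30 to 1.35) and 1.74 times (1.70 to 1.79) the level of the other barcodes. LRP4, a receptor that binds WNT antagonists, stood at 494 against 389 CPM in AF75 and 508 against 368 in AF76. JAG1, a NOTCH ligand, stood at 161 against 132 CPM in AF75 and 134 against 119 in AF76. These 3 genes were above the other barcodes in both follicles. AMIGO2, a leucine-rich repeat adhesion protein, was below them, at 1548 against 1721 CPM in AF75 and 1698 against 2037 in AF76. A median member had 25 UMIs of SLC6A4 in AF75 and 39 in AF76, 6 and 8 of LRP4, 19 and 26 of AMIGO2 and 1 and 1 of JAG1. Counting intervals of CPM and of ratios cover counting error only.

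**Figure D1:**
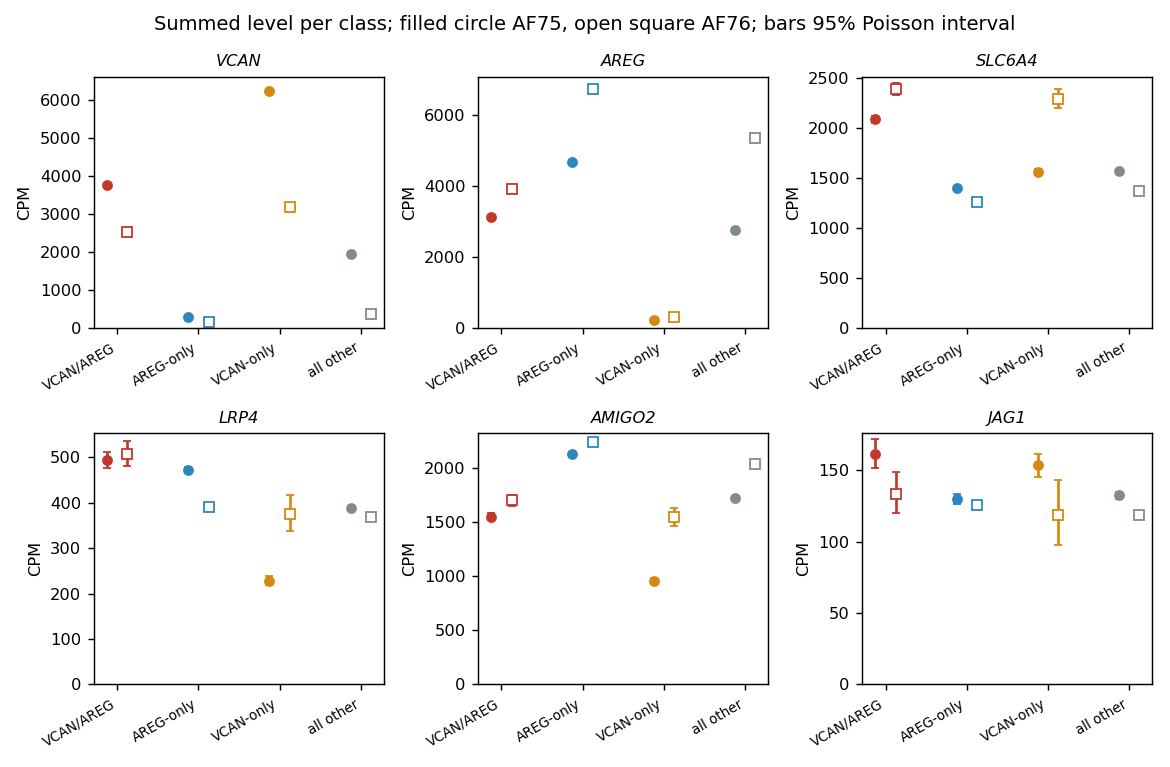
Summed level in CPM of the 6 marker genes in VCAN/AREG, AREG-only, VCAN-only and all other barcodes, with AF75 as filled circles, AF76 as open squares and exact 95% Poisson intervals as bars. VCAN and AREG in members lay between the VCAN-only and AREG-only levels in both follicles. Among the groups shown, SLC6A4, LRP4 and JAG1 were highest in members in both. In AF75, SLC6A4 and LRP4 were higher still in some barcodes with 10 to 29 VCAN UMIs, which are in neither class.

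To ask how members differed, their UMIs were summed in each follicle and compared with the sum of all other barcodes inside the limits by edgeR's quasi-likelihood test with the follicle as a block (n = 2 follicles). The genes of the rule were not tested. Of 12377 genes, 809 were called at an adjusted p under 0.05, or 6.54%. Of these 412 (3.33%) were higher and 397 (3.21%) lower, and 793 of the 809 had the same sign in both follicles. The edgeR counts of each list below are to be read against these shares of all genes, and 1 called gene in a short list lies near them. The changes were mostly small, with a median absolute log2 fold of 0.44 among the called genes and only 18 higher and 105 lower genes with an absolute log2 fold of at least 1. The test had 1 residual degree of freedom and took its spread from all genes. Its SE and p-values thus do not measure how far a gene's own fold differed between the 2 follicles. DESeq2 called 179 genes and the fit without the block none, with 807 genes at an unadjusted p under 0.05.

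**Figure D2:**
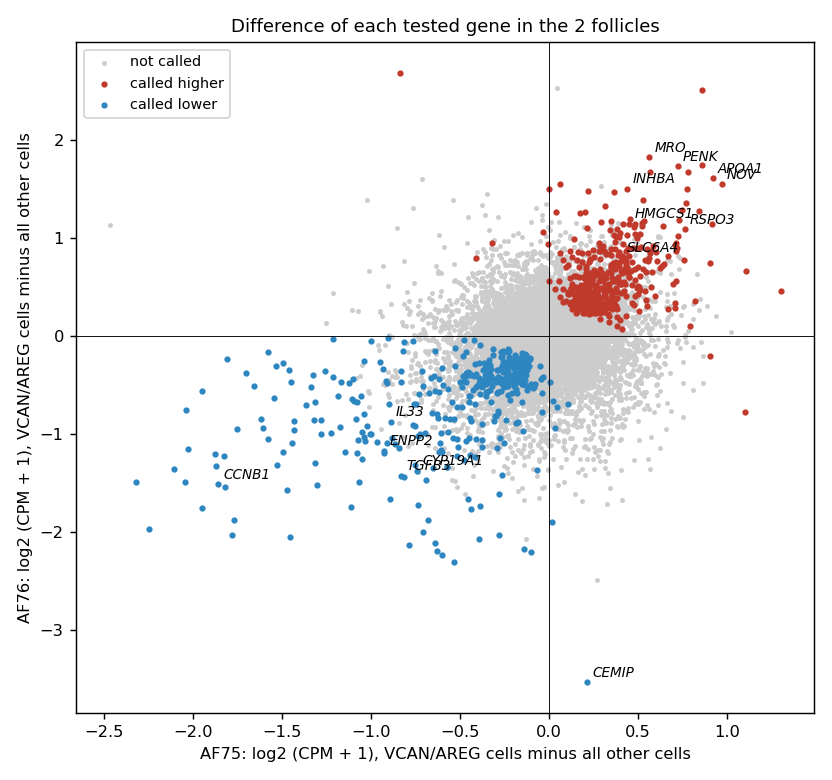
Difference in log2 (CPM + 1) between VCAN/AREG cells and all other barcodes for each tested gene in AF75 (horizontal axis) and AF76 (vertical axis). Of the 809 called genes, in red or blue, 793 fell on the same side of 0 in both follicles.

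APOA1, the main protein of high-density lipoprotein, stood at 7375 CPM against 3903 in AF75 and at 4378 against 1433 in AF76 (log2 fold 1.25 ± 0.053 SE, adjusted p = 9.42e-118). PENK, the precursor of enkephalins, stood at 1831 against 1110 CPM and at 875 against 263 CPM (log2 fold 1.20 ± 0.062). NOV, a matricellular protein of the CCN family, stood at 353 against 180 CPM and at 203 against 68.7 CPM (log2 fold 1.22 ± 0.070). In each of these genes the members of both follicles were above the others, by more in AF76 than in AF75, and the difference between follicles was not tested. The same held for MRO, named for a male-biased pattern in the developing gonad, at 887 against 601 and 834 against 235 CPM, and for FBN2, a microfibril protein, at 243 against 174 and 312 against 141 CPM. PRCP, a lysosomal carboxypeptidase, stood at 343 against 220 and 323 against 148 CPM. ENSSSCG00000031023, which has no symbol in the files, had the highest fold of the named genes (log2 fold 1.29 ± 0.062), at 1277 against 703 CPM in AF75 and 1450 against 431 in AF76. It also was higher in VCAN-only than in AREG-only cells, at 1556 against 317 CPM in AF75 and 2402 against 281 in AF76.

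Cholesterol and fatty acid synthesis was the list with the most higher genes. Of its 27 genes, all tested, 19 were higher and 0 lower, against 3.33% and 3.21% of all genes tested. Their median log2 fold was 0.45, against -0.01 over all genes tested. HMGCS1, which makes the first committed precursor of mevalonate, stood at 358 CPM against 262 in AF75 and at 504 against 227 in AF76 (log2 fold 0.78 ± 0.066 SE, adjusted p = 5.12e-29). CYP51A1, which removes a methyl group from lanosterol, stood at 180 against 131 CPM and at 282 against 123 CPM (log2 fold 0.81 ± 0.071). SQLE, which makes squalene epoxide, stood at 325 against 266 CPM and at 487 against 267 CPM (log2 fold 0.56 ± 0.066). In all 3 genes members were above the other barcodes in both follicles.

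IDI1, an isomerase between mevalonate and squalene, stood at 556 against 446 CPM in AF75 and at 731 against 409 in AF76. INSIG1, a sterol sensor partner that holds the pathway back, was higher too, at 92.5 against 74.5 and 125 against 68.2 CPM (log2 fold 0.56 ± 0.080). Among fatty acid genes, SCD, FASN and ELOVL6 were higher, with SCD at 70.6 against 52.7 and 79.2 against 40.9 CPM. SREBF2, the transcription factor of sterol synthesis, did not pass at 117 against 105 and 106 against 86.5 CPM (adjusted p = 0.11), nor did SREBF1 at 11.96 against 16.5 and 13.8 against 17.2 CPM (adjusted p = 0.13). The count of 19 was 18 without the barcodes of high doublet score and 16 against other barcodes of like depth, where 2.73% and 2.39% of all genes were higher. It was 12 of 26 by DESeq2, 9 with the rule applied per 10000 UMIs, 9 with a VCAN limit of 50, 9 with an AREG limit of 20 and 0 without the block. The shares of all genes called higher were 1.14%, 1.33%, 1.46%, 0.772% and 0% in the same order.

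**Figure D3:**
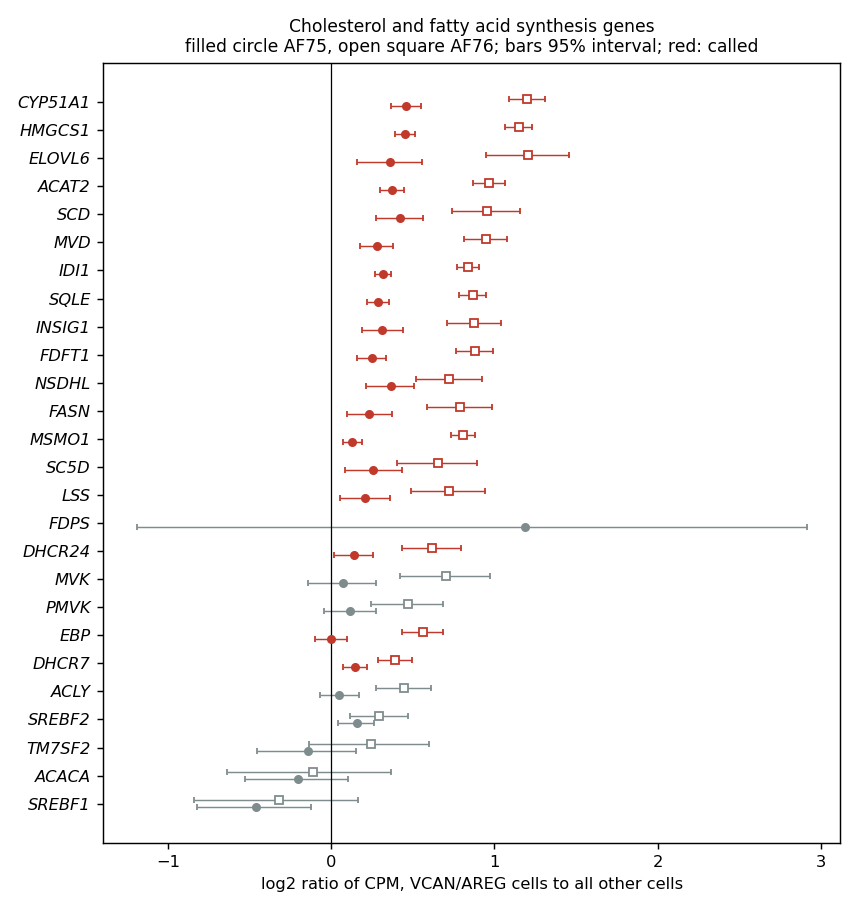
Log2 ratio of CPM in VCAN/AREG cells to all other barcodes for the cholesterol and fatty acid synthesis genes that are reported and have UMIs in both sums, in AF75 (filled circles) and AF76 (open squares), with exact conditional 95% intervals as bars and genes called by edgeR in red. CYP51A1 and HMGCS1 lay right of 0 in both follicles, further in AF76, and no gene in red lay left of 0 except EBP in AF75, at 150 against 151 CPM.

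Genes that use cholesterol did not move one way. Of 16 tested genes of steroid hormone synthesis, 3 were higher and 4 lower, with a median log2 fold of -0.10. STARD4, a soluble carrier of sterols inside the cell, was higher, at 55.0 against 42.0 and 77.2 against 35.6 CPM (log2 fold 0.70 ± 0.095, adjusted p = 3.73e-11). POR, the electron donor of steroid P450 enzymes, and HSD17B7, which acts in both estradiol and cholesterol synthesis, were higher as well. STAR, which brings cholesterol into mitochondria, was lower, at 61.1 against 76.1 and 31.9 against 59.2 CPM (log2 fold -0.52 ± 0.094). CYP11A1 was lower at 1491 against 1701 and 1255 against 1690 CPM (log2 fold -0.32 ± 0.058), as was CYP19A1, the aromatase that makes estradiol, at 13.3 against 22.9 and 11.8 against 32.3 CPM (log2 fold -1.04 ± 0.15). NR5A2, a nuclear receptor that drives steroid enzymes, was the fourth lower gene. By DESeq2, 1 of 15 genes of this list was higher and 2 lower.

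Of 26 tested genes of activin, inhibin, BMP and TGF-beta signalling, 3 were higher and 5 lower. INHBA, the beta A subunit of activin and inhibin, stood at 2704 CPM against 1997 in AF75 and 1421 against 502 in AF76 (log2 fold 0.95 ± 0.059, adjusted p = 1.58e-54). INHBB, the beta B subunit, was lower at 50.5 against 69.5 and 13.4 against 22.0 CPM (log2 fold -0.52 ± 0.11). TGFB3, a TGF-beta ligand, was lower at 64.1 against 115 and 57.5 against 156 CPM (log2 fold -1.10 ± 0.084, adjusted p = 4.63e-36). The receptors BMPR1B, at 1076 against 830 and 681 against 550 CPM, and TGFBR1 were higher. AMHR2, the receptor of anti-Mullerian hormone, was lower at 0.997 against 2.09 and 0.394 against 5.38 CPM. The AMHR2 levels of members rest on few UMIs. The BMP target genes ID1 and ID3 were lower, with ID3 at 13.8 against 21.7 and 15.4 against 36.2 CPM. By DESeq2, 1 of 19 genes with an adjusted p was higher and 2 were lower. INHA did not pass (log2 fold -0.10 ± 0.042, adjusted p = 0.17), nor did FST, which binds activin (adjusted p = 0.97).

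Of 26 tested genes of WNT signalling besides the marker LRP4, 2 were higher and 2 lower. RSPO3, a secreted enhancer of WNT signalling, stood at 841 against 496 and 542 against 254 CPM (log2 fold 0.91 ± 0.064, adjusted p = 4.38e-42). DKK1, a secreted WNT antagonist, stood at 38.5 against 33.5 and 85.1 against 34.8 CPM (log2 fold 0.71 ± 0.10). FZD5, a WNT receptor, was lower at 23.1 against 31.7 and 22.5 against 29.7 CPM, as was the ligand WNT2. Besides the marker JAG1, edgeR called 0 of 12 tested NOTCH genes, with 1 at an unadjusted p under 0.05, and DESeq2 called 0 of 8, JAG1 included. NOTCH2, the most abundant receptor of that list, stood at 138 CPM in members of AF75 and 148 in AF76 (adjusted p = 0.99). Of 5 tested serotonin genes besides the marker SLC6A4, 1 was called, the monoamine oxidase MAOB, at 150 against 134 and 142 against 113 CPM (adjusted p = 0.039). The serotonin receptors HTR2A, HTR2B and HTR2C stayed under 2 CPM in members of both follicles.

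Of 12 tested genes of EGF-like ligands, their shedding and their receptors, 1 was called. TGFA, a ligand of the EGF receptor, stood at 119 against 99.5 and 117 against 97.0 CPM (log2 fold 0.25 ± 0.077, adjusted p = 0.020) and was that gene. EREG, a further EGF-like ligand of the ovulatory response, was above the other barcodes in AF75 at 45.2 against 28.3 CPM and below them in AF76 at 7.88 against 16.2 CPM (adjusted p = 0.27). EGFR, the receptor, stood at 42.5 against 33.4 and 26.8 against 23.99 CPM (adjusted p = 0.18). Among 19 tested genes of the ovulatory response, 2 were higher and 1 lower. ADAMTS1, a protease that cuts versican, was higher at 329 against 260 and 375 against 210 CPM (log2 fold 0.57 ± 0.067). DUSP6, a feedback phosphatase of ERK, was lower.

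Of the 23 tested genes of the versican and hyaluronan matrix, 4 were higher and 1 lower. Besides ADAMTS1 the higher genes were ADAMTS4, also a versican protease, CHSY1, which builds chondroitin chains, and HAS3, a hyaluronan synthase. HAS3 stood at 5.15 against 5.00 and 14.6 against 5.47 CPM (adjusted p = 0.048). Its levels were nearly equal in AF75, so its call rests on AF76. HMMR, the lower gene, is a hyaluronan receptor that is also high in dividing cells, which the rule left out. TNFAIP6, which links hyaluronan to heavy chains in the cumulus matrix, did not move one way. It stood at 663 against 939 CPM in AF75 and 331 against 227 in AF76 (log2 fold -0.02 ± 0.066, adjusted p = 0.94). Against other barcodes with low THBS1 and division genes its log2 fold was 0.44 (adjusted p = 0.000629). It also differed among members of AF75, where the median was 1 UMI, the 90th percentile 27 and the highest 164. By DESeq2, 1 gene of the list was higher.

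GJA1, the connexin of granulosa gap junctions, stood at 1260 against 922 and 1046 against 689 CPM (log2 fold 0.51 ± 0.061, adjusted p = 9.18e-15). It was higher than in AREG-only cells too, as given below. Of 19 tested glycolysis genes 4 were higher and 0 lower, namely LDHA, HK2, ALDOC and the lactate exporter SLC16A3. LDHA, lactate dehydrogenase, stood at 248 against 216 and 176 against 126 CPM (log2 fold 0.31 ± 0.071). DESeq2 called none of 17, and the edgeR fit with an AREG limit of 20 none of 19. The 2 like classes, defined below, lay on either side. Against AREG-only cells 17 of the 19 log2 folds were above 0 (median 0.33), with 1 gene called higher. Against VCAN-only cells 0 of the 19 were above 0 (median -0.44), with 0 called. Division genes (0 higher and 6 lower of 13) are described without weight, since the rule limited TOP2A, UBE2C and CENPF.

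IL33, a nuclear cytokine of the interleukin-1 family, was lower. It stood at 1239 CPM against 2299 in AF75 and 1413 against 2595 in AF76 (log2 fold -0.90 ± 0.057, adjusted p = 4.48e-51), 0.539 times (0.527 to 0.552) and 0.544 times (0.526 to 0.562) the level of the others. ENPP2, which makes lysophosphatidic acid, was lower at 30.1 against 58.2 and 29.5 against 67.9 CPM. CYB5A, a cytochrome b5 that assists steroid enzymes and the study's other mural marker, was lower at 309 against 444 and 381 against 633 CPM. Other lower genes were the cell cycle kinase WEE1, the mitochondrial MGARP, the stress gene DDIT4, the interferon-induced ISG15 and the immediate early gene FOS. FOS stood at 42.9 against 63.0 and 68.1 against 109 CPM, and with DUSP1 it made 0 higher and 2 lower of 15 tested immediate early genes. Of 11 tested heat shock genes HSPE1, a mitochondrial co-chaperone, and BAG3 were lower, and of 16 genes of the gonadotropin and cAMP pathway SIK1, a cAMP-induced kinase, was lower at 79.9 against 95.1 and 77.6 against 109 CPM. Of 10 tested genes of oocyte support GJA1 was higher and GUCY1A1, a subunit of guanylate cyclase, lower.

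Genes of other cell types were compared as well. Of 9 tested theca and stromal genes RGS5 was higher, at 1075 against 865 and 829 against 582 CPM, and INSL3 lower, at 277 against 309 and 354 against 500 CPM. Both genes were also found in AREG-only and VCAN-only cells, defined below, at 183 to 1237 CPM. HBB, a globin of red cells, stood at 1.33 against 2.54 CPM in AF75 and 9.06 against 46.4 in AF76. CEMIP, which breaks down hyaluronan, stood at 3.15 against 47.1 CPM in AF76 and at 0.332 against 0.152 in AF75, so its call rests on AF76. CCDC80, a matrix protein, stood at 10.6 against 51.7 CPM in AF76 and at 0.498 against 0.656 in AF75.

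Members were next compared with the classes most like them. AREG-only cells had fewer than 10 VCAN UMIs and at least 10 of AREG, and VCAN-only cells had at least 30 of VCAN and fewer than 10 of AREG, both with the same limits on THBS1 and division genes. There were 3633 AREG-only cells in AF75 and 4965 in AF76, and 864 and 65 VCAN-only cells. The 3 classes and the sum of all remaining barcodes were fitted together in edgeR over 11842 genes. Against AREG-only cells 222 genes were called (1.87%), 127 higher (1.07%) and 95 lower (0.802%). Against VCAN-only cells 8 genes were called (0.0676%), 8 higher and 0 lower, and 1365 genes had an unadjusted p under 0.05. DESeq2 called 549 genes against AREG-only cells and 146 against VCAN-only cells, 108 of these higher and 38 lower. A fit of only the 2 classes turned the balance for VCAN-only cells, with 105 genes higher and 156 lower. A smaller number of calls here does not show that members are more like VCAN-only cells, since AF76 had only 65 of those.

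Against AREG-only cells, genes of the VCAN-only side were higher. CTGF, a matricellular target of YAP signalling, stood at 245 CPM against 26.3 in AF75 and 83.1 against 16.0 in AF76 (log2 fold 2.79 ± 0.19 SE, adjusted p = 0.0018). INHBA stood at 2704 against 474 and 1421 against 363 CPM (log2 fold 2.15 ± 0.31, adjusted p = 0.021). PENK stood at 1831 against 292 and 875 against 207 CPM (log2 fold 2.27 ± 0.32, adjusted p = 0.018). GJA1 was higher at 1260 against 713 and 1046 against 605 CPM (adjusted p = 0.0087). TGFB3 was lower at 64.1 against 178 and 57.5 against 187 CPM (log2 fold -1.61 ± 0.16, adjusted p = 0.0075). IL33 was lower at 1239 against 3368 and 1413 against 3088 CPM (log2 fold -1.32 ± 0.11, adjusted p = 0.0038). TSPAN12, a tetraspanin that acts with a WNT receptor, was lower at 19.8 against 53.5 and 15.8 against 50.2 CPM.

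The genes called against VCAN-only cells were ANKRD22, EMP1, HSPB3, IL33, NEXN, NLGN1, PDK4 and RPS6KA3. IL33 stood at 1239 against 576 CPM in AF75 and 1413 against 688 in AF76 (log2 fold 1.07 ± 0.11, adjusted p = 0.032). RPS6KA3, a kinase downstream of ERK, stood at 324 against 139 and 321 against 180 CPM (log2 fold 1.04 ± 0.099). EMP1, a membrane protein, stood at 102 against 45.9 and 134 against 70.8 CPM (log2 fold 1.07 ± 0.11). NEXN, an actin-binding protein, stood at 108 against 43.0 and 161 against 83.9 CPM (log2 fold 1.19 ± 0.14, adjusted p = 0.041). Members thus held more IL33 than VCAN-only and less than AREG-only cells in both follicles. No gene was called against VCAN-only cells without the barcodes of high doublet score, when 1290 genes had an unadjusted p under 0.05.

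The order of levels was read without a test, since class membership and the choice of genes far apart between the classes fix part of it. Of 3082 genes at 50 CPM or more in a class of both follicles, 63 were at least 2-fold apart between VCAN-only and AREG-only cells, the same way in both follicles. Members lay between the classes in 63 of the 63 genes in AF75 and in 59 in AF76. Over the 3082 genes, they lay above both classes in 23.8% and below both in 13.8% in AF75. In AF76 these shares were 26.6% and 23.3%. For the 63 genes, positions were put on a log2 scale where AREG-only cells are 0 and VCAN-only cells 1. The median position of members was 0.63 in AF75 (quartiles 0.50 and 0.73) and 0.66 in AF76 (0.44 and 0.78). Genes such as CTGF, PENK and INHBA were higher toward VCAN-only cells, and TGFB3, IL33 and ENPP2 toward AREG-only cells. APOA1 and MRO were higher in VCAN-only than in AREG-only cells, but in AF76 members were above both classes. There APOA1 stood at 4378 CPM in members and 3009 in VCAN-only cells, and MRO at 834 and 659 CPM.

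**Figure D4:**
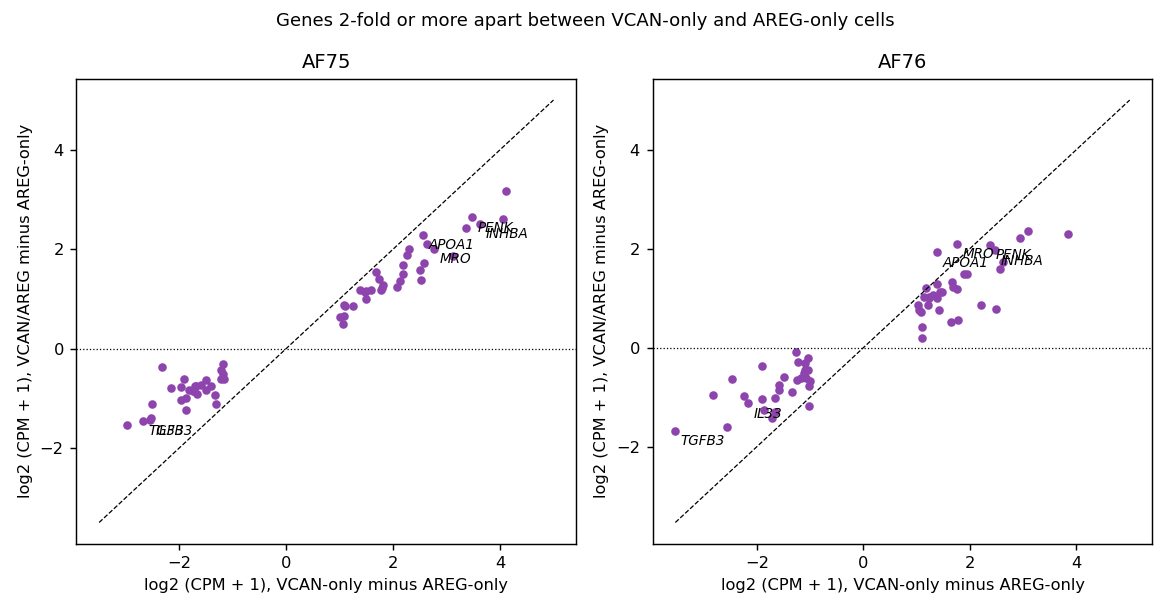
For the 63 genes at least 2-fold apart between VCAN-only and AREG-only cells in both follicles, the difference in log2 (CPM + 1) of VCAN-only minus AREG-only cells (horizontal axis) against that of VCAN/AREG minus AREG-only cells (vertical axis), in AF75 (left) and AF76 (right). Points between the dotted line at 0 and the dashed diagonal are genes in which members lay between the classes, 63 in AF75 and 59 in AF76.

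Sterol synthesis genes had another order in AF75. There, CYP51A1 stood at 180 CPM in members, 116 in AREG-only and 127 in VCAN-only cells, and HMGCS1 at 358, 254 and 221 CPM. Members were above both classes in 21 of the 27 genes of the list in AF75 (77.8%) and in 8 in AF76 (29.6%), with 6 in both (22.2%). Over the 3082 genes, members were above both classes in 23.8% in AF75, 26.6% in AF76 and 9.15% in both. In the test against AREG-only cells 1 of the 27 genes was higher and 0 lower, against 1.07% and 0.802% of all genes. DESeq2 called 5 of 26 higher and the fit of only the 2 classes 14 of 26, against 2.65% and 5.15% of all genes. Against VCAN-only cells 0 of 27 were called (median log2 fold 0.24), and 0 of 26 in both of these alternatives. In AF76, CYP51A1 stood at 282 CPM in members, 105 in AREG-only and 291 in VCAN-only cells, so that members and VCAN-only cells were both above AREG-only cells. SLC6A4 was above both classes in each follicle, at 2082 against 1393 and 1560 CPM in AF75 and 2385 against 1261 and 2289 in AF76. Its counting intervals in members (2326 to 2446 CPM) and VCAN-only cells (2192 to 2389 CPM) overlapped in AF76. Barcodes with 10 to 29 VCAN UMIs and the same limits on THBS1 and division genes are in neither class. With 0 to 9, 10 to 29, 30 to 59 and at least 60 AREG UMIs, they held 2207, 2203, 2051 and 1766 CPM of SLC6A4 in AF75. In AF76 these levels were 1717, 2167, 2108 and 1808 CPM. In AF75 a SLC6A4 level above both classes was therefore not particular to members.

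The members differed among themselves along both genes of the rule. In AF75, INHBA stood at 2128 CPM in barcodes with 30 to 49 VCAN and 10 to 29 AREG UMIs and at 3826 CPM in those with at least 50 VCAN and 10 to 29 AREG UMIs. At 30 to 49 VCAN UMIs, IL33 stood at 1147 CPM with 10 to 29 AREG UMIs, 1372 with 30 to 59 and 1474 with at least 60. In AF76 the same 3 IL33 levels were 997, 1207 and 1860 CPM. SLC6A4 went the other way at these VCAN counts, at 2334, 2088 and 1755 CPM in AF75 and at 2649, 2383 and 2174 CPM in AF76. These bins hold barcodes inside the limits that also met the rule's limits on THBS1 and division genes, and share their library. Single members ranged widely, with 0 to 733 UMIs of APOA1 and 0 to 243 of INHBA in AF75.

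**Figure D5:**
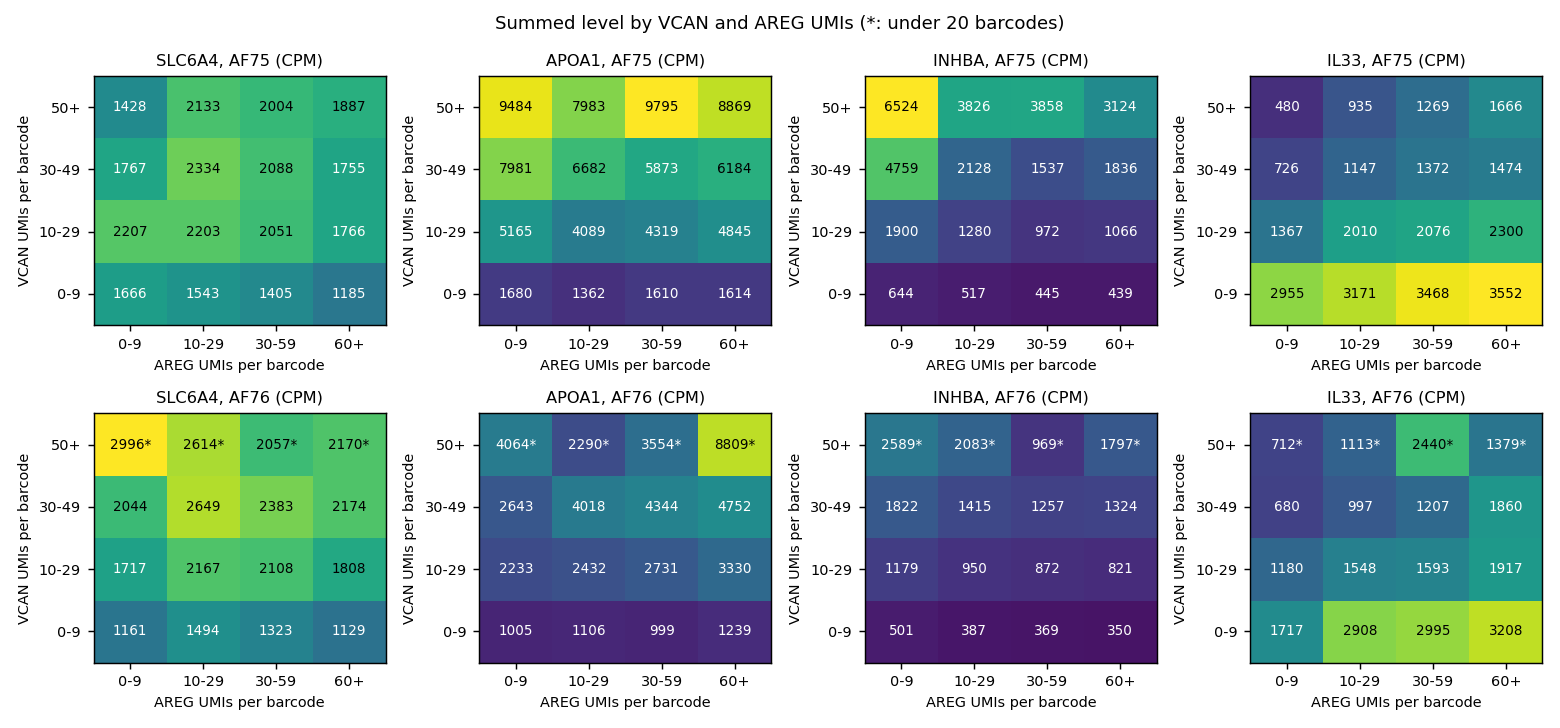
Summed CPM of SLC6A4, APOA1, INHBA and IL33 in barcodes inside the limits, binned by AREG UMIs (horizontal axis) and VCAN UMIs (vertical axis), in AF75 (top) and AF76 (bottom). The barcodes also met the rule's limits on THBS1 and division genes. Colour and printed value give the level, a star marks bins under 20 barcodes, and the IL33 level was highest at 0 to 9 VCAN UMIs and at least 60 AREG UMIs in both follicles.

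In a map of expression made without the genes of the rule and the mitochondrial genes, members had neighbours of every class. Of the 30 nearest barcodes of a member, 16.6% on average were members in AF75 and 8.67% in AF76, against 4.43% and 1.89% of all barcodes. AREG-only cells made 13.9% of the neighbours in AF75 and 36.5% in AF76, against 38.8% and 63.3% of all barcodes. VCAN-only cells made 14.2% and 3.24%, against 9.23% and 0.829%. Barcodes kept out of the rule by THBS1 alone made 5.41% and 0.338%, against 0.983% and 0.0638%. The remaining barcodes made 49.9% and 51.2% of the neighbours, against 46.5% and 33.9% of all barcodes.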

How the data were processed

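Somatic cells of 2 pig antral follicles were sequenced with the 10x Genomics 3' v3.1 kit, 1 library per follicle. The authors deposited whole UMI counts per gene and barcode from CellRanger 6.0.2 on Sscrofa11.1, with no normalization and no further filter on barcodes. Depth was 500 to 95248 UMIs per barcode in AF75 and 500 to 90527 in AF76.

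The members, classes, gene lists and markers were chosen with earlier results of these data known. Counts were summed per class and follicle and given as CPM. Sums were tested with edgeR 4.0.16 (R 4.3.3; quasi-likelihood, TMM, filterByExpr, follicle as block, Benjamini-Hochberg adjustment, calls at 0.05), without the genes of the rule. Both follicles are of 1 pig, and they were paired as the source of each class. DESeq2 1.42.0 was an alternative. No test between follicles was made. Intervals are exact at 95% (Poisson, Clopper-Pearson, conditional) and cover counting error only. Doublets were scored but kept. Of gene identifiers without a symbol in the deposited list (7356), 1042 were named from a RefSeq table of the same assembly. The tests were tested on simulated data. Named genes were the markers, the genes of the rule, the 12 highest folds each way against all other barcodes and 5 each way against each class (called, same sign in both follicles, at least 50 CPM), and the 2 most abundant and 2 most changed genes of each list. Other genes of the lists, and sequence motifs, were named after their values were seen. Sums were made with scipy 1.17.1 in Python 3.11.15, tables with pandas 2.3.3, the expression map with scikit-learn 1.9.0 and plots with matplotlib 3.10.9. Some genes that the rule names, and some sequences, are not reported here.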

Additional observations from a re-analysis of the deposited data

How the results depend on the processing

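Against all other barcodes, 809 genes were called. With an AREG limit of 20 the count was 173, with the DESeq2 test 179, with a VCAN limit of 50 it was 343, with the rule per 10000 UMIs 344, and with no replicate block 0. The other alternatives gave 547 to 896. Against AREG-only cells the count of 222 became 549 with the DESeq2 test, 451 with no filter on low counts, 1120 with only the 2 classes compared, 104 with the rule per 10000 UMIs and 6 with no replicate block. Against VCAN-only cells the count of 8 became 146, 114, 261, 0 and 0 in the same order, and 0 without the highest doublet scores. The causes were not tested.

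The share of members, 4.43% in AF75 and 1.89% in AF76, became 2.97% and 0.408% with the rule per 10000 UMIs, 7.82% and 4.37% with a VCAN limit of 20, 1.92% and 0.395% with a VCAN limit of 50, 6.25% and 2.22% with an AREG limit of 5, 2.84% and 1.53% with an AREG limit of 20, 3.79% and 1.29% with 500 to 6000 genes, 3.13% and 1.08% among all deposited barcodes, 3.40% and 0.569% after thinning to 5000 UMIs with halved limits, and 3.40% in AF75 without the highest doublet scores.

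Of 1633 values of 103 named log2 folds in the tested alternatives, 1408 kept direction and side of the threshold, 170 lost the call, 13 gained one and 42, from 19 genes, changed sign. Of these, EMP1 was called in the reported fit and went to -0.027 with the rule per 10000 UMIs, and TNFAIP6 was called in an alternative, at 0.44 against other barcodes with low THBS1 and division genes. The others were called in neither. TNFAIP6 went to 0.050 with an AREG limit of 20, 0.021 with one of 5, 0.014 with the DESeq2 test and 0.26 with a VCAN limit of 50. NOTCH2 went to -0.045 with an AREG limit of 5, -0.059 with a VCAN limit of 50, -0.061 without the highest doublet scores, -0.0028 with a mitochondrial limit of 10%, -0.00089 with no filter, -0.020 at like depth, -0.053 with low THBS1 and division genes and -0.092 with the rule per 10000 UMIs. HTR2C went to -0.28 with an AREG limit of 20. Log2 folds of other uncalled list genes went to 0.0085, -0.046, 0.013 and 0.0092 with 500 to 6000 genes, 0.052 and -0.032 with an AREG limit of 20, 0.48, -0.038 and 0.034 with one of 5, -0.47 and 0.0074 with a VCAN limit of 20, 0.063, -0.19, 0.13, -0.13, 0.30 and 0.014 with one of 50, -0.12 without the highest doublet scores, -0.011 and 0.018 at like depth, 0.33 and 0.028 with low THBS1 and division genes, and 0.033, -0.59, 0.054, -0.026 and 0.14 with the rule per 10000 UMIs. With a follicle left out there was no test, and 11 of 187 folds changed sign, of which CEMIP alone was called, at 1.13 without replicate 2 and -3.90 without replicate 1. Without the replicate block 57 of the 103 lost their call. A comparison with cells high in THBS1 was not run, since AF76 had 5 of them, under the minimum of 20. The DESeq2 test of the AREG-only and VCAN-only comparisons and leaving out barcodes found in both libraries were chosen after seeing the data.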
